A study of Homo sapiens with 8 samples.

Results

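The 39 genes described here are targets of the transcription factor ATF4 together with genes of the endoplasmic reticulum (ER) stress response. They were found by their gene symbol among the 23459 rows of the count table, and all 39 had 1 row each. By function they fall into an amino acid arm of 29 genes and an ER arm of 10 genes. RNA was sequenced from Hct116, a human line derived from a colorectal carcinoma, after 16 h of exposure to 30 μM lenalidomide or to the solvent DMSO, in 4 libraries per treatment. Lenalidomide is a thalidomide derivative that redirects the CRL4-CRBN ubiquitin ligase to new substrates. The sample records name no deletion or transgene in either group.

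The medium is described because many of these genes can respond to amino acid supply. The methods of the study describe a DMEM that lacks arginine and lysine, with serum that had been dialysed and both amino acids added back; heavy forms of them replaced the light ones at the moment of treatment, in both groups alike. The sample records instead describe ordinary DMEM with serum and glutamine. Some of the replicates were planned as label swaps, in which the labels were exchanged in the opposite order. Which of the RNA libraries these were is not given in the sources used here. Both records give the groups the same medium, so an effect of it that both groups share cannot be told apart from the usual state of these cells.

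ATF4 is the effector of the integrated stress response. When amino acids run short or unfolded protein collects in the ER, kinases phosphorylate the translation factor eIF2α, general protein synthesis slows, and ATF4 messenger RNA is translated more. ATF4 then activates genes for amino acid synthesis, uptake and transfer RNA charging, as well as feedback genes that end the response. The ER branch works in parallel through ATF6 and XBP1, which activate chaperones and the machinery that removes misfolded proteins. Because ATF4 is controlled largely at translation, its RNA level is not a direct measure of its activity, and the RNA of its targets is commonly read instead.

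The promoters of both arms were searched for response elements. The elements were first described on promoters of such stress genes, so their presence in these members is background on the genes and not an independent finding. Promoter sequences of RefSeq (GRCh38.p14, 250 bases before to 50 after a transcription start) were found for 34 of the 39 genes, with 49 promoters in all. NUPR1, PSPH, SHMT2, ALDH1L2 and SLC7A11 had no entry. Both strands were read for 4 motifs. The ER stress element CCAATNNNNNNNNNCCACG, at which ATF6 binds together with NF-Y, was present in HSPA5, HSP90B1, XBP1 and CALR. It was present in 0.0769% of all 35116 promoters. The related ATTGGNCCACG, known as ERSE-II, was present in HERPUD1 and SDF2L1, and in 0.0541% of all promoters. Thus 6 of 10 ER genes and 0 of 24 amino acid genes with a promoter held one of these 2 elements, against 0.161% of all 27305 genes of the promoter table.

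These are the ER elements of the 6 genes, shown because they were found in ER genes and in none of the amino acid genes with a promoter. Capitals mark the element, on the strand of the gene or reversed, and positions are those of an exact match in GRCh37, the build used for the counts.

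HSPA5 (chr9:128003665-128003693, minus strand): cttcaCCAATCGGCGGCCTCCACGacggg

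XBP1 (chr22:29196586-29196614, minus strand): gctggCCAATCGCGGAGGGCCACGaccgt

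HSP90B1 (chr12:104323989-104324017, plus strand): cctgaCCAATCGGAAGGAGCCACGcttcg

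HSP90B1 (chr12:104324094-104324122, plus strand): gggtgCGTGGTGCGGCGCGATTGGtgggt

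CALR (chr19:13049178-13049236, plus strand): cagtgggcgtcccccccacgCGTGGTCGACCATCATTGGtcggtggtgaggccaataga

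HERPUD1 (chr16:56965857-56965967, plus strand): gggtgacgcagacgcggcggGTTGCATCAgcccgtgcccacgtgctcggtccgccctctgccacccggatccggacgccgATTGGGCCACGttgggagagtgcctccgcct

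SDF2L1 (chr22:21996383-21996433, plus strand): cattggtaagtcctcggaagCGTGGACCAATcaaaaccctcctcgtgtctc

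HSP90B1 carried the element at 2 places, beginning 194 and 89 bases before its start and in opposite orientations. Both windows lie in annotated exons of GENCODE. In HERPUD1 the first capitals are not the ER element but TGATGNAAN in reverse, the C/EBP-ATF response element at which ATF4 acts with a C/EBP partner. HERPUD1 was the 1 ER gene with this element.

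The C/EBP-ATF element was found in 6 of the 24 amino acid genes, namely ASNS, CEBPG, CHAC1, PPP1R15B, SLC3A2 and SLC7A1, and in 4.45% of all genes of the table (3.61% of all promoters). It lay before the start in 4 of them, which are shown here with the element in capitals, and after the start in SLC3A2 and SLC7A1.

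ASNS (chr7:97501770-97501798, minus strand): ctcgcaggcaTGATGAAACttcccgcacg

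CEBPG (chr19:33864957-33865005, plus strand): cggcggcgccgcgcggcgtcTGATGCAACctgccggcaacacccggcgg

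CHAC1 (chr15:41245449-41245477, plus strand): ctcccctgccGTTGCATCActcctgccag

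PPP1R15B (chr1:204381154-204381182, minus strand): ccgccccggcTGATGCAACctcacgctgc

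The element of ASNS began 68 bases before the start, and those of ASNS, CHAC1 and PPP1R15B overlap exons annotated by GENCODE. The element TGACGTGG, known as the unfolded protein response element, was found in 0.927% of all genes (0.729% of all promoters) and in 0 of the 34 members. No base was shared between elements of these genes. A match describes these letters in this window only, and an element farther away or spelled otherwise was not looked for.

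**Figure D1:**
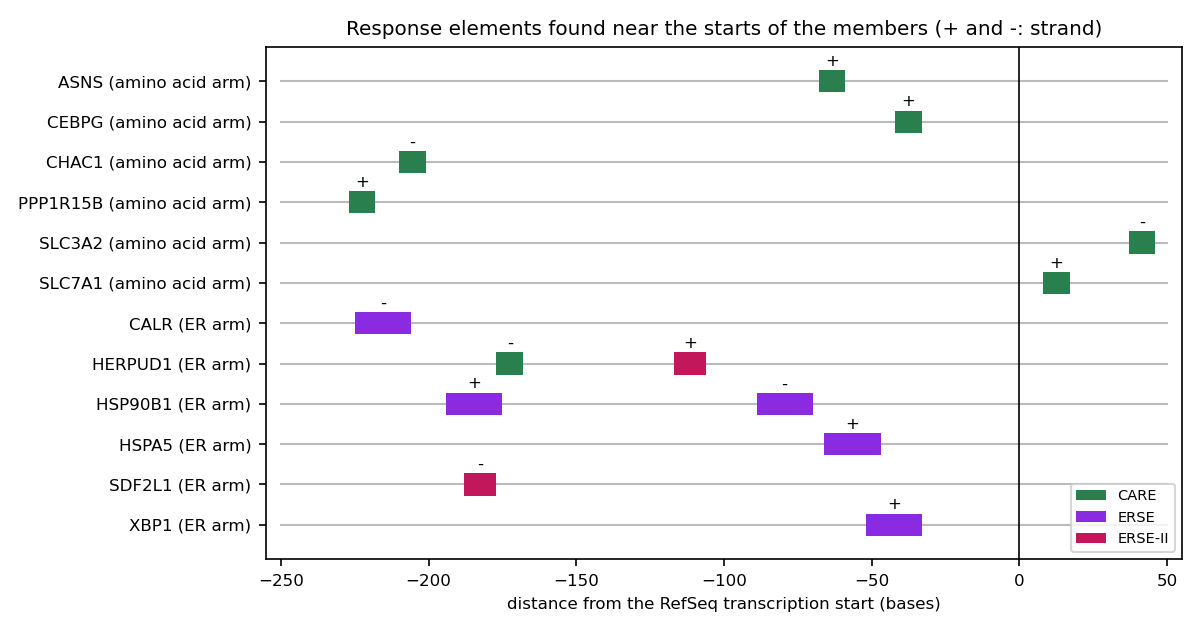
Positions of the C/EBP-ATF element (CARE), the ER stress element (ERSE) and ERSE-II in the promoters of the 12 members that held one. The horizontal axis gives the distance from the RefSeq transcription start in bases, each grey line is the promoter window of 1 gene, and the signs give the strand. The purple and red bars are on the lines of ER genes.

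Library totals ran from 28218471 to 37473413 counts, and each lenalidomide library was smaller than each DMSO library; the part of depth in the comparisons was not tested. Values are given in CPM, counts per 1000000 counts of the library after TMM scaling, or in CPM per kb of exon where genes are compared with each other. Epithelial markers were high, from 11.8 CPM per kb for CDH1 to 575 for KRT19 with DMSO, while PTPRC, PECAM1, COL1A2 and DCN, markers of other cell types, were too low to be tested and COL1A1 stood at 0.503. In bulk RNA, less of a transcript per cell and fewer cells with it cannot be told apart.

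Of the 39 genes, 37 had enough counts to be tested. CBS and VLDLR did not. CBS, the entry enzyme of transsulfuration, had 2, 1, 0, 0, 3, 1, 2 and 0 counts in DMSO replicates 1 to 4 and lenalidomide replicates 1 to 4. VLDLR, a lipoprotein receptor, had 0, 1, 1, 0, 1, 1, 1 and 3 counts in the same order. Both were thus near the detection limit in every library, with at most 3 counts. For CBS, 0 of 67 exonic stretches of 50 bases recurred on chromosome 21 of GRCh37, where the gene lies, and other chromosomes were not searched. GENCODE lists an entry of the type artifact over 2495 of its exonic bases on the same strand. Whether reads of CBS were lost in alignment or counting was not tested.

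The levels of the other 37 spanned a wide range under DMSO. In the ER arm the order was led by CALR, a lectin chaperone, at 822 ± 56.9 CPM per kb (SD, n = 4), and HSP90B1, the ER paralogue of HSP90, at 763 ± 73.8 CPM per kb. Their spreads overlapped. PDIA4, a disulfide isomerase, stood at 191 and HSPA5 (BiP), the master chaperone of the ER, at 154. The degradation factor EDEM1 was the lowest of the arm, at 1.46. In the amino acid arm ATF4 itself led with 219.9 ± 6.45 CPM per kb, close to MTHFD2, a mitochondrial folate enzyme, with 209 ± 0.571 CPM per kb. PSAT1 of the serine pathway had 125 and SLC3A2, the heavy chain of several amino acid transporters, 97.1 CPM per kb.

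Targets that are widely used as reporters of an active stress response differed in level. ASNS stood at 67.6 and PPP1R15A at 42.5 CPM per kb under DMSO, while others were much lower. DDIT3 (CHOP), the transcription factor linked with cell death under ER stress, stood at 4.57 CPM per kb under DMSO. TRIB3, a pseudokinase that dampens ATF4, stood at 5.39 and CHAC1, which degrades glutathione, at 3.26. NUPR1, a stress-induced chromatin protein, and ALDH1L2, a mitochondrial folate dehydrogenase, were the lowest with 0.349 and 0.124. The median over the 37 genes was 20.8 CPM per kb, against 6.36 over all 13925 genes tested.

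**Figure D2:**
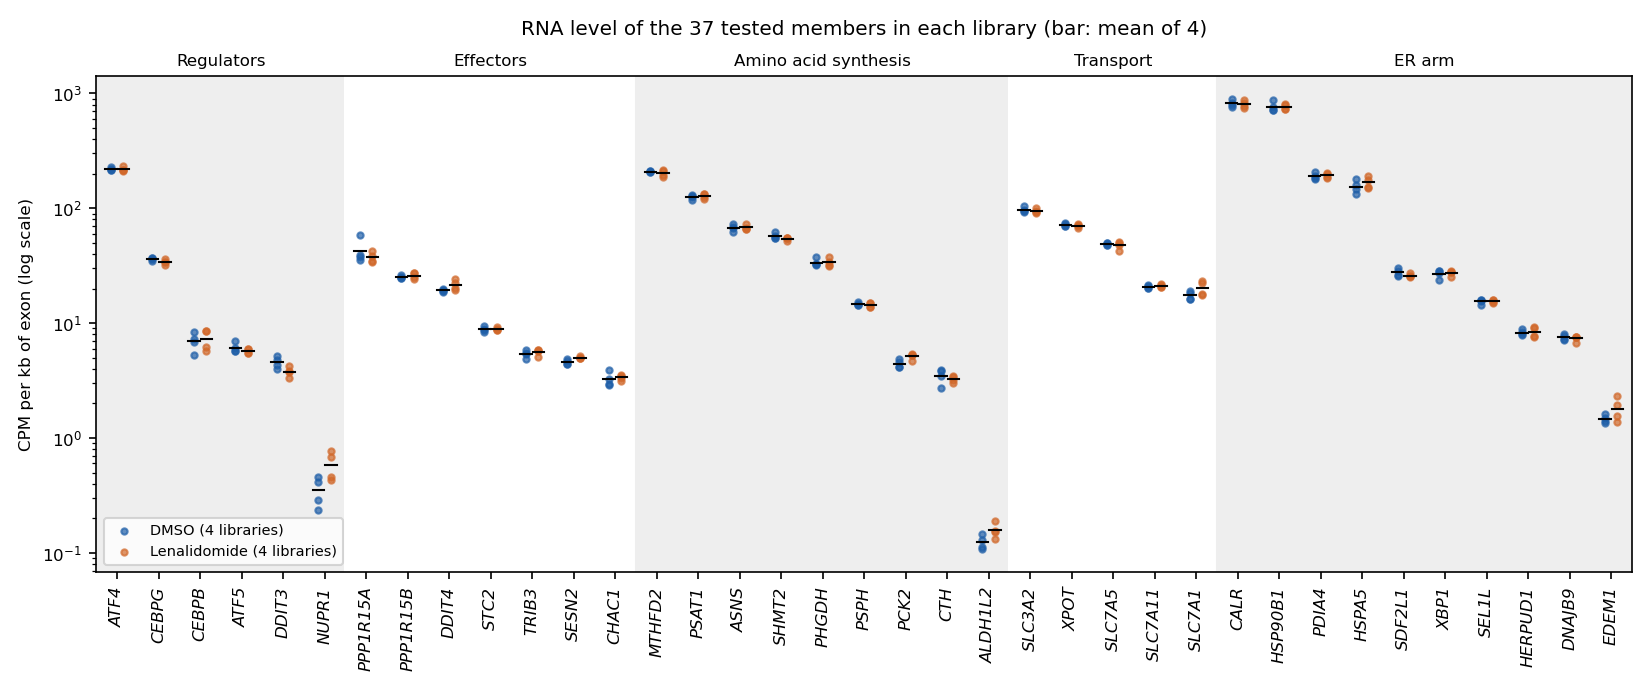
RNA level of the 37 tested members, ordered by role and by level under DMSO. The vertical axis is CPM per kb of exon on a log scale, each point is 1 library (blue DMSO, orange lenalidomide, 4 each) and black bars are means; the points of both treatments lie side by side for most genes, from 822 for CALR to 0.124 for ALDH1L2 under DMSO.

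Lenalidomide was then compared with DMSO in these genes, the question being whether a treatment that removes selected proteins also moves the amino acid or ER stress programme at the RNA level. Of the 37 genes tested, 0 passed the threshold of 0.05 on the adjusted p (quasi-likelihood test of edgeR, Benjamini-Hochberg over all genes tested), where 0.0144% of all genes tested did. DESeq2 called 0 as well. By the same edgeR test an unadjusted p under 0.05 was found for 6 of the 37, 5 of them higher with lenalidomide and 1 lower, against 3.26% and 0.919% of all genes tested in these directions. With DESeq2 this number was 5. It fell from 6 to 2 without DMSO replicate 1 or without lenalidomide replicate 4, to 3 without DMSO replicate 2, and to 4 without DMSO replicate 4, lenalidomide replicate 1 or lenalidomide replicate 3. Among the 5 higher genes, NUPR1 passed the count filter only through its lenalidomide values, as described with that gene. A log2 fold change above 0 was found for 21 of the 37, where 51.3% of all genes had one. Groups without overlap were found for 1 gene with higher values, against 1.24% of all genes tested, and for 0 genes with lower values, against 0.84%.

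Both arms were centred close to 0. The median log2 fold change was 0.0094 for the 27 tested genes of the amino acid arm and 0.010 for the 10 ER genes, beside 0.0025 over all genes tested. The amino acid arm ran from -0.28 to 0.74 and the ER arm from -0.095 to 0.29. The upper end of the amino acid arm was NUPR1, which was tested only through its higher group. The next value in that arm was 0.34, for ALDH1L2. As the arms also differ in their number of genes, no difference in range is read from these values. For 26 of the 37 genes the difference was smaller than 0.1 in size. For 33 of the 37 the 95% confidence interval lay wholly between -0.5 and 0.5. The 4 genes whose intervals passed these bounds were DDIT3, NUPR1, ALDH1L2 and EDEM1, all of them low in these cells. By role, the median was -0.046 for the 6 regulators, 0.048 for the 7 tested effectors, 0.0094 for the 9 tested enzymes and -0.022 for the 5 transport genes. Values above 0 were found for 6 of the 7 effectors and for 2 of the 6 regulators, where 51.3% of all genes had one.

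**Figure D3:**
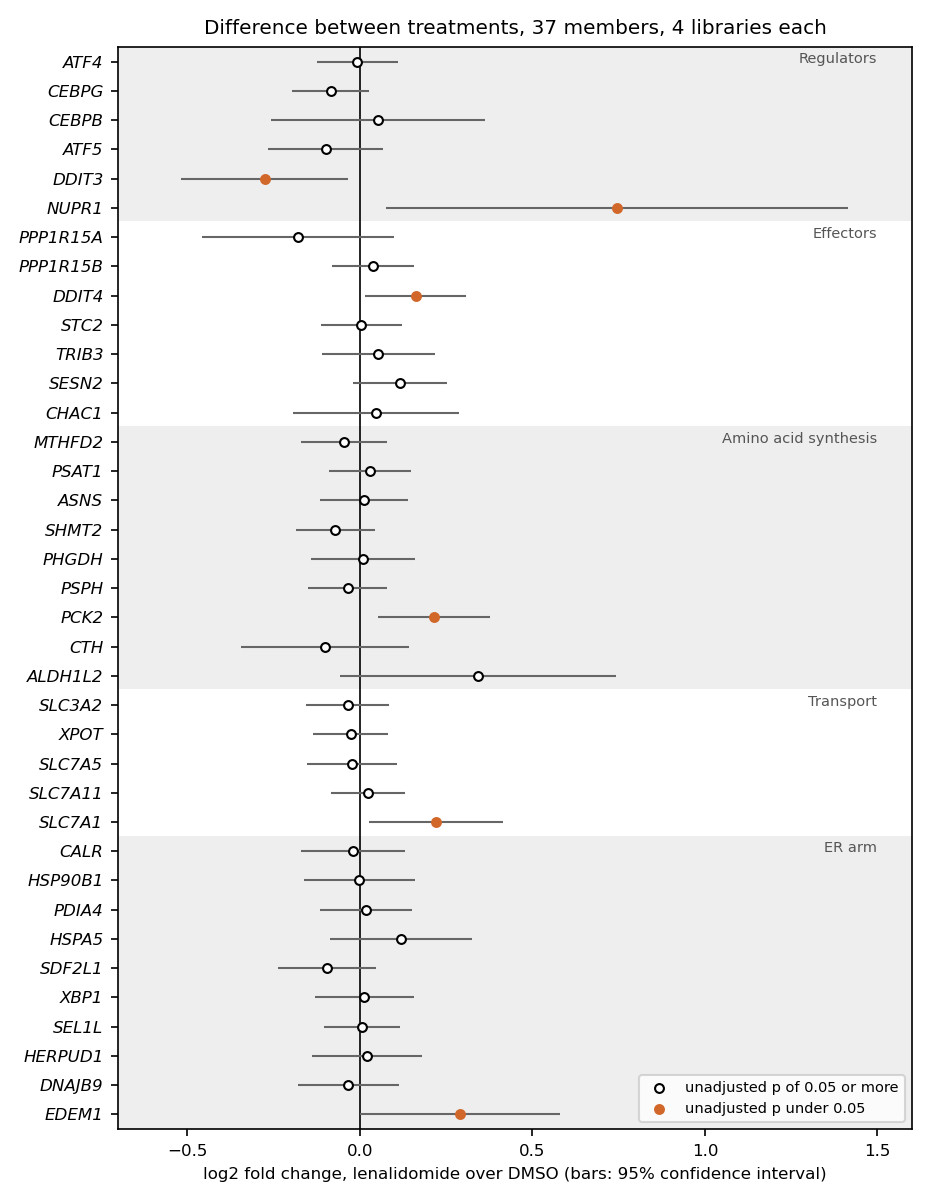
Log2 fold change of lenalidomide over DMSO with its 95% confidence interval for the 37 tested members, grouped by role. Filled points have an unadjusted p under 0.05; all other intervals include 0, and no gene had an adjusted p under 0.05.

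Among the regulators, ATF4 RNA had nearly the same level in both treatments. ATF4 (chr22:39915700-39918688 of GRCh37, plus strand) had 455, 486, 466 and 460.0 CPM in DMSO replicates 1 to 4. With lenalidomide it had 458, 496, 456 and 448 CPM. The groups overlapped, and the log2 fold change was -0.0072 (95% confidence interval -0.12 to 0.11). A range in parentheses after a log2 fold change is this interval throughout. CEBPG, a dimer partner of ATF4, and ATF5, a related factor, had log2 fold changes of -0.085 and -0.099, with intervals that include 0. The value of ATF5 was -0.039 without DMSO replicate 3 and -0.13 without DMSO replicate 1. ATF5 shares 640 exonic bases with genes on the opposite strand and 74 with a gene on the same strand.

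DDIT3 was the 1 member with an unadjusted p under 0.05 and lower values. Its CPM were 5.09, 6.10, 5.64 and 4.70 with DMSO and 4.96, 4.40, 4.47 and 3.92 with lenalidomide. The groups overlapped through lenalidomide replicate 1, the highest of its group, and DMSO replicate 4, the lowest. Its log2 fold change was -0.28 (standard error 0.11, unadjusted p = 0.0281, adjusted p = 0.999 by edgeR). DDIT3 shares 413 exonic bases with genes on the opposite strand, among them MARS1, and 105 with a gene on the same strand. The default counting of QuasR takes reads of either strand, so reads of these genes cannot be told apart there.

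CEBPB, a C/EBP factor that works together with ATF4, had the largest SD of log2(CPM + 0.5) between libraries of a treatment, a scale that compresses very low genes such as NUPR1. It had 17.7, 14.5, 11.2 and 15.4 CPM with DMSO and 13.1, 12.1, 17.97 and 17.9 CPM with lenalidomide. Both treatments covered nearly the same range, the SD was 0.28, and 95.6% of all genes tested had a smaller one. Its log2 fold change was 0.052 (95% confidence interval -0.26 to 0.36).

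NUPR1 had the largest difference and the fewest counts of the tested members. Its counts were 8, 15, 13, 10, 19, 13, 23 and 12 in DMSO replicates 1 to 4 and lenalidomide replicates 1 to 4, or 0.214, 0.414, 0.380 and 0.264 CPM and 0.616, 0.392, 0.699 and 0.416 CPM. The log2 fold change was 0.74 (95% confidence interval 0.075 to 1.42, unadjusted p = 0.0318), and the groups overlapped. NUPR1 reached the count filter in 2 DMSO libraries and 4 lenalidomide libraries, so that it was tested only through its higher group and its direction is not independent of the filter. GENCODE places a long noncoding RNA over 909 of its exonic bases on the same strand.

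The effectors and feedback genes of the pathway include 2 inhibitors of mTORC1 signalling, described here in turn. DDIT4 (REDD1; chr10:74033678-74035794 of GRCh37) had 33.1, 34.8, 34.2 and 32.9 CPM with DMSO and 34.2, 42.1, 35.2 and 39.5 CPM with lenalidomide. Lenalidomide replicates 2, 3 and 4 stood above all DMSO libraries, replicate 3 narrowly, and replicate 1 lay within the DMSO range. Its log2 fold change was 0.16 (standard error 0.068, unadjusted p = 0.0326).

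SESN2, which senses leucine (chr1:28586029-28609002 of GRCh37), was the 1 member whose groups did not overlap. Its CPM were 16.5, 17.3, 15.7 and 15.6 with DMSO and 17.5, 17.5, 17.4 and 18.2 with lenalidomide. The gap between DMSO replicate 2 and lenalidomide replicate 3 was narrow, and the log2 fold change was 0.12 (95% confidence interval -0.020 to 0.25, unadjusted p = 0.0878). Neither gene overlaps exons of another gene in GENCODE.

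In PPP1R15A (GADD34), which brings a phosphatase to eIF2α and ends the response, 1 library set the value. It had 94.0, 83.8, 138 and 89.3 CPM with DMSO and 92.4, 102, 81.5 and 82.2 CPM with lenalidomide. DMSO replicate 3 stood far above the other 7 libraries. A log2 fold change of -0.18 was obtained with this library (95% confidence interval -0.46 to 0.098) and 0.0034 without it. Its constitutive relative PPP1R15B had a log2 fold change of 0.039.

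Both reporters TRIB3 and CHAC1 were low in both treatments. TRIB3 had 13.9, 16.7, 15.5 and 15.4 CPM with DMSO and 14.4, 16.2, 16.5 and 16.7 CPM with lenalidomide. CHAC1 had 5.11, 6.12, 4.50 and 4.59 CPM and 5.55, 4.92, 5.20 and 5.37 CPM. In both genes the lenalidomide values lay within or next to the DMSO range, with log2 fold changes of 0.054 (95% confidence interval -0.11 to 0.22) and 0.048 (-0.19 to 0.29). The value of CHAC1 turned to -0.0085 without DMSO replicate 3, and that of TRIB3 was 0.0040 without DMSO replicate 1. STC2, a secreted glycoprotein, differed by 0.0048.

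Among the enzymes of amino acid and one-carbon synthesis, ASNS, which makes asparagine and is a classical gene of the amino acid response, had 173, 184, 157 and 169 CPM with DMSO. With lenalidomide it had 168, 184, 169.9 and 166 CPM. The groups overlapped, and the log2 fold change was 0.012 (95% confidence interval -0.11 to 0.14). GENCODE lists a long noncoding RNA over 2415 of its exonic bases on the same strand. The 3 enzymes of the serine pathway, PHGDH, PSAT1 and PSPH, differed by 0.0094, 0.030 and -0.035 on the log2 scale.

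MTHFD2 had 476, 479, 478 and 476 CPM with DMSO and 449, 482, 493 and 425 CPM with lenalidomide. The DMSO values lay within 3 CPM of each other while the lenalidomide values lay both above and below them, and the log2 fold change was -0.046 (-0.17 to 0.078). SHMT2, the enzyme before it in the mitochondrial folate cycle, differed by -0.071. CTH, the second enzyme of transsulfuration, had 8.38, 8.66, 5.96 and 7.58 CPM with DMSO and 6.97, 7.39, 7.60 and 6.55 CPM with lenalidomide, a log2 fold change of -0.10 (-0.34 to 0.14) with overlapping groups. The value of CTH was -0.036 without DMSO replicate 2 and -0.20 without DMSO replicate 3.

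PCK2, the mitochondrial phosphoenolpyruvate carboxykinase, had the smallest unadjusted p of the 37 genes. Its CPM were 13.8, 13.9, 16.2 and 15.4 with DMSO and 15.6, 17.9, 17.6 and 17.8 with lenalidomide (chr14:24563262-24579807 of GRCh37, no overlapping exons). Lenalidomide replicates 2, 3 and 4 were above all DMSO libraries, and replicate 1 lay between the DMSO values. Lenalidomide over DMSO gave a log2 fold change of 0.22 (standard error 0.076, unadjusted p = 0.0130, adjusted p = 0.999 by edgeR). ALDH1L2 had 1.21, 0.910, 0.877 and 1.06 CPM with DMSO and 1.07, 1.27, 1.551 and 1.25 CPM with lenalidomide. Its log2 fold change was 0.34 (-0.058 to 0.74), and the groups overlapped. ALDH1L2 shares 276 exonic bases with genes on the opposite strand, whose reads cannot be told apart there.

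Among the transporters, SLC7A1 (CAT1) carries arginine and lysine, the amino acids that, by the methods, were exchanged in the medium. It had 119, 119, 139 and 135 CPM with DMSO and 132, 129.8, 163 and 172 CPM with lenalidomide (chr13:30083551-30169825 of GRCh37, no overlapping exons). In both treatments replicates 3 and 4 stood above replicates 1 and 2, and lenalidomide replicates 1 and 2 lay within the DMSO range. This gave a log2 fold change of 0.22 (standard error 0.090, unadjusted p = 0.0283 by edgeR). The value ran from 0.15 without lenalidomide replicate 4 to 0.28 without lenalidomide replicate 2.

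In the other transport genes every interval included 0. SLC3A2 had 241, 254, 274 and 247 CPM with DMSO and 244, 249, 261 and 237 CPM with lenalidomide, which overlapped (log2 fold change -0.035, 95% confidence interval -0.16 to 0.086). Its light chains SLC7A5, for large neutral amino acids, and SLC7A11, for cystine, differed by -0.022 and 0.024. XPOT, which exports transfer RNA from the nucleus, differed by -0.026. SLC7A11 and XPOT had the smallest spread between libraries of all 37, with an SD of log2 CPM of 0.045 and 0.045.

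**Figure D4:**
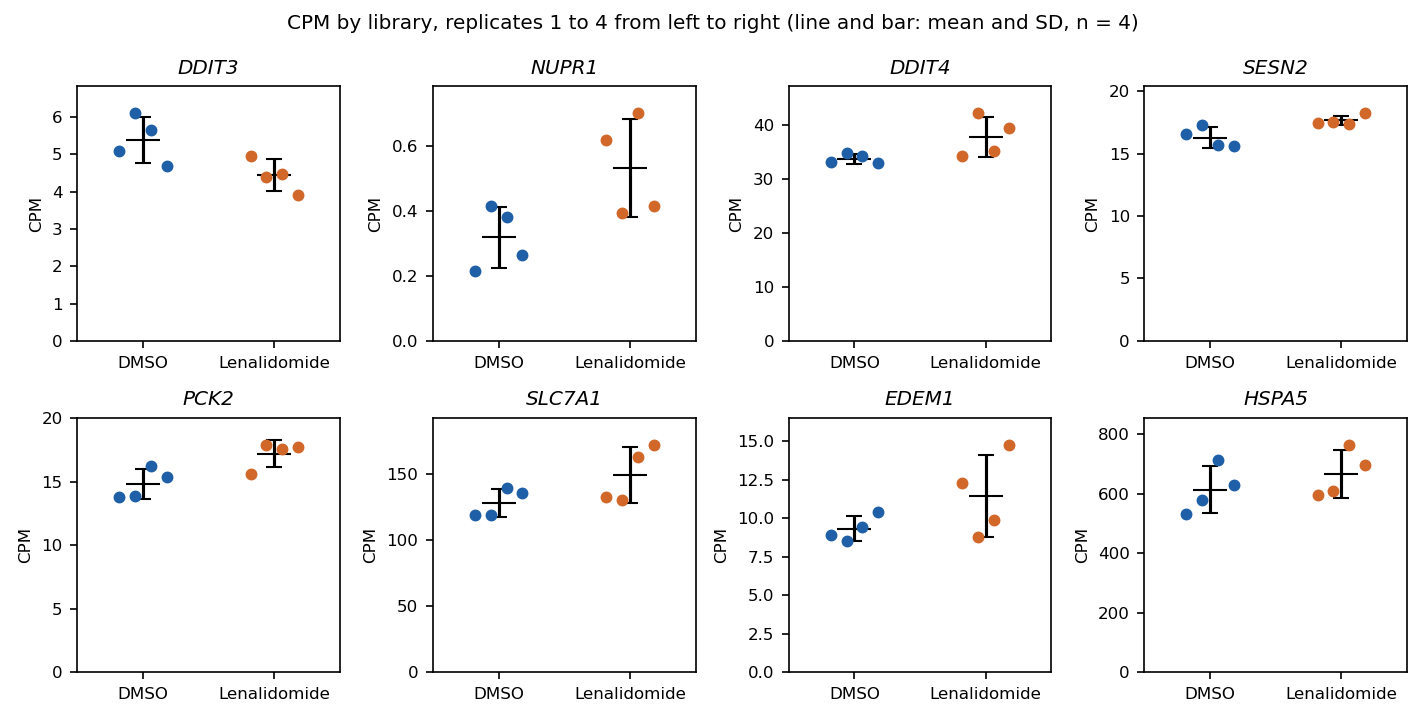
CPM of 8 members in each library, on linear axes that start at 0. Points are libraries, with replicates 1 to 4 from left to right, blue for DMSO and orange for lenalidomide, and lines and bars are means and SD (n = 4). SESN2 is the panel in which the treatments do not overlap.

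In the ER arm the interval of every chaperone included 0. HSPA5 (chr9:127997132-128003661 of GRCh37, minus strand) had 531, 578, 715 and 628 CPM with DMSO and 594, 609.7, 764 and 696 CPM with lenalidomide. Replicate 3 was the highest and replicate 1 the lowest in both treatments. Its log2 fold change was 0.12 (95% confidence interval -0.086 to 0.33), and ran from 0.046 without lenalidomide replicate 3 to 0.20 without DMSO replicate 3.

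CALR had 1579, 1518, 1719 and 1467 CPM with DMSO and 1494, 1680, 1585 and 1437 CPM with lenalidomide, a log2 fold change of -0.020 (-0.17 to 0.13). HSP90B1, PDIA4, SDF2L1 and the cochaperone DNAJB9 differed by -0.00074, 0.019, -0.095 and -0.033 on the log2 scale. XBP1, the transcription factor of the unfolded protein response, had 72.9, 76.2, 63.1 and 76.5 CPM with DMSO and 75.2, 67.2, 75.2 and 73.7 CPM with lenalidomide (log2 fold change 0.013, -0.13 to 0.16). The count table gives 1 value per gene, so that the spliced form of XBP1, which is the active one, was not measured. The 6 genes with an ER stress element near their start thus differed by between -0.095 and 0.12, and the interval of each included 0.

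Of the 3 genes of ER-associated degradation, EDEM1 was the 1 whose interval did not include 0. EDEM1, which takes misfolded glycoproteins out of the folding cycle, had 8.94, 8.53, 9.44 and 10.4 CPM with DMSO and 12.3, 8.78, 9.88 and 14.8 CPM with lenalidomide. Lenalidomide replicates 1 and 4 were above all DMSO libraries while replicates 2 and 3 lay within their range. The log2 fold change was 0.29 (95% confidence interval 0.00012 to 0.58, unadjusted p = 0.0499 by edgeR). It ran from 0.15 without lenalidomide replicate 4 to 0.40 without lenalidomide replicate 2. A long noncoding RNA on the opposite strand overlaps 631 of its exonic bases. HERPUD1 and SEL1L, which belong to the ubiquitin ligase complex at the ER membrane, differed by 0.022 and 0.0072.

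The spread between libraries of a treatment was then compared. The SD of log2(CPM + 0.5) within a treatment had a median of 0.097 over the 37 genes and of 0.11 over all genes tested, and 13 of the 37 were above the latter. CEBPB, PPP1R15A and EDEM1, with 0.28, 0.25 and 0.24, had the largest SD of the 37, larger than 95.6%, 93.4% and 92.2% of all genes tested. The ER arm took between 0.502% and 0.564% of all counts, with both extremes among the DMSO libraries. The amino acid arm took a steadier share, between 0.333% and 0.344%, again with both extremes among the DMSO libraries. Each share is a sum of raw counts, in which the genes with the most counts weigh most. In the ER arm these were HSP90B1 and CALR, with 85024 and 58815 counts in DMSO replicate 3.

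The highest library was counted for each gene. Among the DMSO libraries, replicate 3 was the highest for 5 of the 10 ER genes, namely CALR, HSP90B1, PDIA4, HSPA5 and SDF2L1, and the lowest for XBP1 and DNAJB9. Replicate 4 was the highest for 4 of the 10, against 21.0% of all genes tested. Over all genes tested, replicate 3 was the highest DMSO library for 31.5% and the lowest for 33.8%. In the amino acid arm DMSO replicate 2 was the highest for 12 of 27 genes, against 25.7% of all genes, and replicate 3 for 8. Among the lenalidomide libraries, replicate 3 was the highest for 18 of the 37 members, against 24.6% of all genes. It was the lowest for 3 of them, against 23.9% of all genes. As the median departure from the DMSO mean in log2 CPM, the ER arm ran from -0.061 in DMSO replicate 2 to 0.082 in DMSO replicate 3, and the 4 lenalidomide libraries lay between these values, from -0.037 to 0.061. The amino acid arm ran from -0.036 in lenalidomide replicate 4 to 0.039 in lenalidomide replicate 3, with nearly equal values of 0.0021 and 0.0018 in DMSO replicates 2 and 3.

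**Figure D5:**
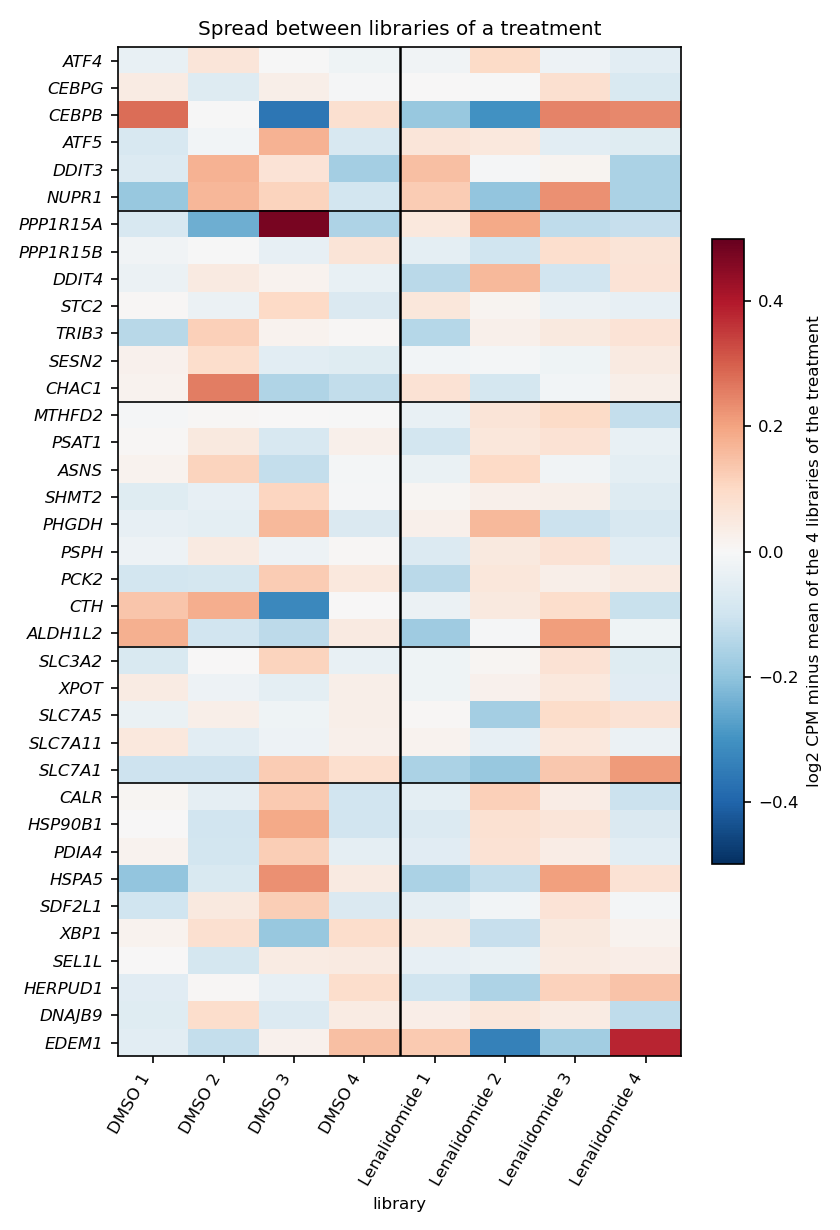
Departure of each library from the mean of its own treatment, in log2 CPM, for the 37 tested members in rows and the 8 libraries in columns. Red is above and blue below the mean of the 4 libraries of the treatment, and the black vertical line separates DMSO from lenalidomide; PPP1R15A in DMSO replicate 3 and EDEM1 in lenalidomide replicate 4 are the darkest red cells.

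Other genes of the same pathways were taken from 4 lists. Of 17 sensors and regulators upstream of ATF4 and the ER response, all tested, 1 had an unadjusted p under 0.05 with higher values, against 3.26% of all genes tested. This was MBTPS2, the protease that releases ATF6 in the Golgi, with 17.6, 19.3, 22.8 and 24.0 CPM under DMSO and 20.2, 22.9, 32.0 and 31.5 CPM under lenalidomide (log2 fold change 0.35, unadjusted p = 0.0250). Its groups overlapped. The 4 eIF2α kinases EIF2AK1, EIF2AK2, EIF2AK3 and EIF2AK4 differed by 0.014, 0.085, -0.019 and 0.00011 on the log2 scale, and the sensors ERN1 and ATF6 by 0.14 and -0.049.

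Of 12 cytosolic tRNA synthetases, which ATF4 induces together with the amino acid genes, the smallest unadjusted p was 0.131 (LARS) by edgeR, and their log2 fold changes lay between -0.081 (LARS) and 0.067 (AARS). LARS, the leucyl synthetase, was the 1 of them with lower values in every lenalidomide library than in any DMSO library, against 0.84% of all genes tested. Of 16 further ATF4 targets, 14 were tested, and 1 had an unadjusted p under 0.05 with lower values, against 0.919% of all genes tested. It was CEBPD, a C/EBP factor, with 3.85, 4.39, 4.38 and 4.09 CPM under DMSO and 3.24, 2.75, 3.59 and 3.78 CPM under lenalidomide. SLC6A9, a glycine transporter named here after its values were seen, had groups without overlap and a log2 fold change of -0.19. Its interval was -0.46 to 0.084 (unadjusted p = 0.162 by edgeR). The groups were barely apart, with 2.162 CPM in DMSO replicate 3 and 2.159 CPM in lenalidomide replicate 3. With CEBPD, SLC6A9 made 2 of the 14 genes without overlap and lower, against 0.84% of all genes tested. In CEBPD all 4 lenalidomide values were below all 4 DMSO values, and the log2 fold change was -0.33 (unadjusted p = 0.0166, adjusted p = 0.999 by edgeR). Of 16 further ER chaperones and degradation genes, 15 were tested. The smallest unadjusted p was 0.220 (HSPA13) by edgeR, with log2 fold changes between -0.078 (HSPA13) and 0.028 (CRELD2). The smallest adjusted p among the tested genes of these 4 lists was 0.999, by the quasi-likelihood test of edgeR.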

How the data were processed

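RNA-seq libraries of Hct116 cells were compared, 4 with DMSO and 4 with lenalidomide. The authors prepared libraries with the ScriptSeq v2 kit, aligned reads to hg19 with splicing allowed, counted them with QuasR at its default settings, and deposited raw read counts per gene of the UCSC known genes and exonic gene widths. bcl2fastq 2.17 is named in the submitters' processing notes. The methods name no strand setting apart from these defaults, under which reads of either strand are counted. Versions of the aligner are not given in the sources used here. No per-sample column was left without a sample.

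The deposited counts were analysed across all genes with edgeR 4.0.16 in R 4.3.3. Genes were kept by filterByExpr (minimum count 10, minimum total count 15), which left 13925 of 23459. TMM factors and the quasi-likelihood test were used, with Benjamini-Hochberg adjustment over all genes tested and a threshold of 0.05. Standard errors and 95% intervals come from the coefficient and its F statistic. SD of log2 CPM used a pseudocount of 0.5. The series calls the 4 libraries of a treatment biological replicates, and a figure legend of the study does so for both the RNA and the proteomic samples. The methods, for the proteomic samples of this experiment, speak of technical replicates. The p-values measure the spread between these libraries, which may be technical. PCR duplicates cannot be recognised, and the values carry counting error in addition.

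Alternatives were RLE scaling, DESeq2 1.42.0, every gene with at least 1 count, a block for the replicate number, and the omission of 1 library at a time. The members, the gene lists and the tests were chosen with earlier results of these data known. Values in every library are given for 7 canonical genes (ATF4, DDIT3, ASNS, TRIB3, CHAC1, HSPA5, XBP1), for members with an unadjusted p under 0.05 or groups without overlap, for the 3 largest differences in each direction, for the 3 largest spreads and for the highest level in each role. The edgeR and DESeq2 fits were also run on simulated data. Gene positions are from GENCODE v44 lifted to GRCh37. Exon overlaps are given for some members only. Others also share exonic bases with other genes, such as MTHFD2 with 1619 on the opposite strand.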

Additional observations from a re-analysis of the deposited data

Results flagged for a closer look

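Of 74 groups of 4 libraries examined (37 members in both treatments), 4 held a value far from the other 3, and about 4 are to be found by chance. Lenalidomide replicate 4 had 18.2 CPM of SESN2, where the other lenalidomide libraries had 17.4 to 17.5 CPM. DMSO replicate 3 had 154 CPM of PHGDH, where the other DMSO libraries had 131 to 134 CPM. For PCK2, lenalidomide replicate 1 had 15.6 CPM and the other libraries of its group 17.6 to 17.9 CPM, and this was the lenalidomide library that overlapped the DMSO values. For DNAJB9, lenalidomide replicate 4 had 17.02 CPM and the others of its group 19.1 to 19.4 CPM.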

How the results depend on the processing

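The number of members with an adjusted p under 0.05 was 0 under every alternative run, and the smallest adjusted p of a member was 0.22, for SLC7A1 with the replicate number as a block (edgeR's quasi-likelihood test). Over the whole table the count of 2 genes became 9 with DESeq2, 4 without the filter (all genes with a count) and 6 with the replicate block, and it was 1 to 2 when each library was left out; the cause was not tested. Members with an unadjusted p under 0.05, 6 by the reported fit, numbered 5 with RLE scaling, 7 with the block, and 2 without DMSO replicate 1, 3 without DMSO replicate 2 and 2 without lenalidomide replicate 4. The median of the amino acid arm lay between -0.013 and 0.017 and that of the ER arm between -0.013 and 0.021 over the fits that each left out 1 library. Samples with the same replicate number deviated together with correlations of 0.052, -0.0075, 0.0032 and 0.31 for numbers 1 to 4. Of the 4 DMSO libraries, 1 correlated best with its own number, so that the numbers were not taken as pairs. This check concerned single replicate numbers. A grouping of several numbers that both treatments share, such as the label swaps, was not tested.

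Over the 12 alternatives, 406 log2 fold changes of members kept their direction and 38 changed sign, none of them with an adjusted p under 0.05. Without the filter STC2 was at -0.0035 and SEL1L at -0.0014, and with the block HSP90B1 was at 0.0024. Over the fits that omit 1 library, the genes that changed sign ran as follows: ASNS -0.029 to 0.050, ATF4 -0.041 to 0.013, CALR -0.062 to 0.022, CEBPB -0.061 to 0.15, CHAC1 -0.0085 to 0.15, DNAJB9 -0.059 to 0.0082, HERPUD1 -0.026 to 0.072, HSP90B1 -0.033 to 0.063, PDIA4 -0.012 to 0.058, PHGDH -0.048 to 0.063, PPP1R15A -0.26 to 0.0034, SEL1L -0.022 to 0.022, SLC7A5 -0.053 to 0.031, STC2 -0.020 to 0.036, XBP1 -0.050 to 0.049. NUPR1, with 8 to 23 counts in a library, is the tested member most limited by depth.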
